A study of Mus musculus with 16 samples.

Results

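Antigen presentation in B cells runs through a pair of paths, and the genes of both were measured here in 8 samples of follicular B cells, which are mature B cells that circulate and settle in lymphoid follicles. MHC class II molecules, such as I-A and I-E in the mouse, show peptides from material taken up by the cell to CD4 T cells. They are loaded in endosomes after cathepsins have cut the invariant chain, and B cells carry them at all times under the control of the coactivator CIITA. MHC class I molecules pair with beta-2-microglobulin, are loaded in the endoplasmic reticulum with peptides that the proteasome has made and the TAP transporter has moved in, and are shown to CD8 T cells by nearly all cells. Class I path genes are known targets of interferons, and class II genes are known targets of CIITA.

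The members were a named list of 31 genes, 14 of the class II path and 17 of the class I path, found through the gene name column of the scanner files with older and newer synonyms accepted. Of these 31 genes, 30 had a probe, and the missing one was Psme2, a subunit of a proteasome activator. All 30 passed the filter on dim probes, among 20469 genes tested in all, and were measured by 49 probes. The brightest probe of a gene gave its value and the others served as a check. The used probes of all 30 members carried the scanner software's mark for a signal well above background on all 16 arrays.

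The study compared C.B17 mice on dual-colour Agilent arrays, with each sample hybridised in both dye orientations against RNA pooled from 6 cell lines (P388d, DN3, EL4, J558, RS2 and R1). The Auto.Pos cells (2 samples) came from AGcAμκTg mice, whose transgenic receptor of VH3609μ with the Vk19-17κ light chain recognises intestinal goblet cells, and a further label field gives that chain as Vkappa17-17kappa. The Auto.Neg cells (2 samples) came from ATAμκTg mice, whose receptor of VH3609μ with Vk21-5κ recognises the thymocyte antigen Thy-1, on a Thy-1 knockout background without that antigen. The WT cells (2 samples) were wild type. Edited and Non-edited cells (1 sample each) carried VH3609t +/- and Vk21-5Tg +/- and also lacked Thy-1. The labels give neither ages nor the promoters of the transgenes, and they leave unsaid whether 2 samples of a group are from different mice. The p-values therefore cover the spread among the samples at hand, which may be technical. The question named in the series' title is what engagement of the B cell receptor does to mature B cells. Auto.Pos and Auto.Neg differ also in light chain, antigen and the Thy-1 knockout, which cannot be told apart from engagement here.

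Every value below is a log2 ratio of sample over reference, averaged over the dye-swap arrays of a sample, and every difference is a difference of such ratios. Before averaging, the dye-swap arrays of a sample could lie far apart. On the used probes the largest gap in any sample ran from 0.29 for Calr to 3.88 for Cd74. It was 3.59 for H2-Ab1, 2.33 for H2-Aa and 2.18 for Ciita. The standard errors are taken between averaged samples and do not count these gaps. A ratio depends on how much of the gene's RNA the reference cell lines held, so genes are not ranked by abundance. On the 16 arrays, 62.0% to 81.9% of probes had a sample signal well above background. The Cy3 array of WT 2 stood apart, with a median sample signal of 735 against 95.1 to 186 on the others. The share of probes well above background was 64.8% on the Cy5 array of WT 2 and 81.9% on its Cy3 array. The 8 samples lay on 7 slides scanned on 4 days, and the samples did not sort by group. Auto.Pos 1 and Auto.Neg 2 shared slide 2, which was read on a different scanner from the rest, and Auto.Pos 2 and WT 2 shared scan day 3. The mean log2 ratio of 10 B cell markers was 4.60 to 5.41 over the 8 samples, against -2.24 to -1.71 for 10 T cell markers and -2.26 to -1.44 for 7 plasma cell markers. The mean of 13 macrophage markers was 2.23 and 1.54 in Auto.Pos, 1.12 and 2.31 in Auto.Neg, 2.42 and 2.12 in WT, 1.10 in Edited and 0.89 in Non-edited. The mean of 8 dendritic cell markers was 0.56 to 1.03 over the 8 samples. Ccr7 alone read 5.10 to 6.18 among them, and the median of these markers was 0.14 to 0.44. Among the T cell markers Cd2 stood apart, at 3.92 to 4.89. All these ratios depend on what the reference cell lines held, so they give no share of other cells. Macrophages also carry class II molecules, cathepsins and Ifi30, and the part of other cells in the values below was not tested. In such bulk samples fewer cells of a type and less RNA per cell cannot be told apart.

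Promoters of 6 class II genes are shown, chosen as those H2 genes of the path that hold the Y box letters within 150 bases before the start. H2-DMa matched 2 promoters without them there, and H2-Ab1 is named only. Of the 30 members, 25 matched a RefSeq promoter (build GRCm38.p6), which gave 28 promoters of 250 bases before to 50 after a transcript start. The stretches below are the 150 bases before the start. The capitals mark the Y box letters GATTGG and, where found, the X box letters (AG, any 2 bases, AC, any 2 bases, ATG), both searched on either strand. X and Y boxes are the known sites through which CIITA's partner factors act.
H2-Aa (chr17:34287824-34287973, minus strand): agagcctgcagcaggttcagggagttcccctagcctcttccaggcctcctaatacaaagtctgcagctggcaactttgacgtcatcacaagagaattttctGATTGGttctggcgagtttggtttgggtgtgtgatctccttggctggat
H2-Eb1 (chr17:34305717-34305866, plus strand): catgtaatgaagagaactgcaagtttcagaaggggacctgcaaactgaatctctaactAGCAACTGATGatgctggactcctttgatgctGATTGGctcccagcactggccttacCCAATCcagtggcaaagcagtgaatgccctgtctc
H2-DMb1 (chr17:34153041-34153190, plus strand): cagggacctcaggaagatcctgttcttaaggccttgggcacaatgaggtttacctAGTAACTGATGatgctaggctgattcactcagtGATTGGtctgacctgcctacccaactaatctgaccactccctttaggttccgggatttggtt
H2-DMb2 (chr17:34145099-34145248, plus strand): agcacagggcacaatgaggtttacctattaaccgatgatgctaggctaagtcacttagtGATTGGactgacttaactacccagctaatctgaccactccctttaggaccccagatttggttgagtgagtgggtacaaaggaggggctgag
H2-Oa (chr17:34092229-34092378, plus strand): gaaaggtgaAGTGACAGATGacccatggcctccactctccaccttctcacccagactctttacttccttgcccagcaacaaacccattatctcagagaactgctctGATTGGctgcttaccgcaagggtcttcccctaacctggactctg
H2-Ob (chr17:34238755-34238904, plus strand): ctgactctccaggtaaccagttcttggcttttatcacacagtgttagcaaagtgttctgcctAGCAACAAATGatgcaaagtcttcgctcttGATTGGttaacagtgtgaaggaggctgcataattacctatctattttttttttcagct
The Y box letters were in 58.3% of 12 class II promoters and 56.2% of 16 class I promoters, against 16.1% of all 32851 promoters of the same length. The X box letters were in 33.3% of the class II promoters and 12.5% of the class I promoters, against 3.09% of all promoters. Counted by gene, the Y box letters were in 7 of 10 class II genes and 8 of 15 class I genes, and Tap1 and Psmb9 share 1 such site. The Y box letters began 33 bases after the first X box letter in H2-DMb1, 30 in H2-Ob, 97 in H2-Oa, and 32 and 57 in H2-Eb1. These matches describe the letters of the stretches and show no binding.

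Of the 14 class II members, 13 were above the reference in all 8 samples, and Ctsb was above it in 2. The median range over the 8 samples was 1.01 for class II members, against 0.916 for all genes. The median over the path was 5.54 and 5.42 in Auto.Pos, 5.26 and 5.48 in Auto.Neg, 5.87 and 5.40 in WT, 5.50 in Edited and 5.39 in Non-edited. No class II member passed the adjusted p threshold of 0.05 in any of the comparisons between replicated groups. The used probes of 16 of the 30 members have a stated position on chromosome 17, which holds the mouse MHC. The used H2-Aa probe has no stated position and is not among them, but the other H2-Aa probe lies on chromosome 17.

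H2-Aa encodes the I-A alpha chain. It read 8.58 and 7.51 in Auto.Pos, 7.14 and 8.29 in Auto.Neg, 8.39 and 7.85 in WT, 7.52 in Edited and 7.41 in Non-edited. The groups overlapped, and the difference of Auto.Pos minus Auto.Neg was 0.33 with a standard error of 0.547. Its partner H2-Ab1, the I-A beta chain, read 7.13 and 6.74 in Auto.Pos, 6.18 and 7.11 in Auto.Neg, 7.20 and 7.11 in WT, 6.65 in Edited and 6.50 in Non-edited. Auto.Neg 1 was the lowest of the 8 samples for both chains on the used probes. On the other H2-Aa probe WT 2 was the lowest at 6.42, and Auto.Neg 1 read 6.94. That probe gave -0.07 for Auto.Pos minus Auto.Neg, 0.25 for Auto.Pos minus WT and 0.33 for Auto.Neg minus WT. The used probe gave 0.33, -0.07 and -0.40. A further H2-Ab1 probe had Auto.Pos 2 lowest at 6.30, and its remaining probes had Auto.Neg 1 lowest, at 7.03 and 5.78. H2-Eb1, the I-E beta chain, had the smallest range of the class II members over the 8 averaged samples, at 0.43. Its dye-swap arrays, however, differed by up to 1.66 within a sample. The averages of H2-Eb1 were 5.45 and 5.44 in Auto.Pos, 5.30 and 5.42 in Auto.Neg, 5.73 and 5.67 in WT, 5.56 in Edited and 5.47 in Non-edited. Both WT samples were above the other 6, yet the differences were small, at -0.26 for Auto.Pos minus WT (SE 0.179) and -0.34 for Auto.Neg minus WT (SE 0.179).

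Cd74 is the invariant chain, which holds the groove of new class II molecules closed. It read 7.52 and 5.58 in Auto.Pos, 6.78 and 7.36 in Auto.Neg, 7.69 and 7.44 in WT, 7.44 in Edited and 7.22 in Non-edited. Auto.Pos 2 alone was low, and the other 7 samples lay between 6.78 and 7.69. These are averages, and the dye-swap arrays of a sample differed by up to 3.88 for Cd74, the largest gap of all members. The difference of Auto.Pos minus WT was -1.02 (SE 0.661, adjusted p = 1 by limma). Without Auto.Pos 2 it was -0.04, and without Auto.Pos 1 it was -1.99. Ciita, the coactivator of class II genes, read 7.12 and 6.02 in Auto.Pos, 5.84 and 6.93 in Auto.Neg, 7.08 and 5.98 in WT, 5.95 in Edited and 5.94 in Non-edited. Auto.Pos 1, Auto.Neg 2 and WT 1, which share a feature extraction protocol, were the 3 highest for Ciita and for H2-Aa on the used probes. On the other H2-Aa probe the Edited sample was the highest at 7.26. The part of the protocol was not tested.

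H2-DM, made of H2-DMa with H2-DMb1 or H2-DMb2, edits the peptides of class II molecules, and H2-DO, made of H2-Oa and H2-Ob, restrains it. H2-DMa read 6.29 and 6.15 in Auto.Pos, 6.62 and 6.37 in Auto.Neg, 6.32 and 5.94 in WT, 6.65 in Edited and 6.68 in Non-edited. H2-DMb1 ran from 5.22 to 6.31 and H2-DMb2 from 5.16 to 6.0, each with overlap between Auto.Pos and WT and between Auto.Neg and WT. The files list an accession of H2-DMb1 for the H2-DMb2 probe too, so these near copies may share signal. The other H2-DMb2 probe gave -0.60 for Auto.Pos minus Auto.Neg and 1.0 for Auto.Neg minus WT, against 0.10 and -0.10 on the used probe.

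H2-Oa read 4.75 and 4.68 in Auto.Pos, 5.00 and 5.18 in Auto.Neg, 5.03 and 5.22 in WT, 5.18 in Edited and 4.91 in Non-edited. Both Auto.Pos samples lay below the other 6. The difference was -0.38 for Auto.Pos minus Auto.Neg (SE 0.193, adjusted p = 1 by limma) and -0.41 for Auto.Pos minus WT (SE 0.193, adjusted p = 0.963), and neither passed. A second H2-Oa probe gave -0.55 and -0.49. Within slide 2 the difference of Auto.Pos minus Auto.Neg was -0.44, and within scan day 3 that of Auto.Pos minus WT was -0.54. Its partner H2-Ob had a lower ratio, between 2.07 and 2.51 in the 8 samples. A description made after the values were seen counted 3 of 30 members, H2-Oa, Tapbp and Calr, with both Auto.Pos samples below the other 6, against 1.87% of all genes.

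Cathepsin S (Ctss) makes the last cut of the invariant chain, and it ran from 3.58 to 4.60. Legumain (Lgmn) is an endosomal protease that cuts after asparagine. It read 0.81 and 1.5 in Auto.Pos, 1.80 and 1.36 in Auto.Neg, 1.67 and 0.42 in WT, 1.83 in Edited and 1.88 in Non-edited. The WT samples lay far apart, and leaving out WT 2 turned its difference of 0.54 for Auto.Neg minus WT to -0.08. Cathepsin B (Ctsb), a further endosomal protease, read -0.52 and -0.91 in Auto.Pos, -0.90 and -0.30 in Auto.Neg, 0.06 and 0.00 in WT, -0.49 in Edited and -0.89 in Non-edited. All samples of both transgenic groups lay below both WT samples, with -0.74 for Auto.Pos minus WT (SE 0.281, unadjusted p = 0.0447 and adjusted p = 0.862 by limma) and -0.63 for Auto.Neg minus WT (SE 0.281). Its other probe gave -0.48 and -1.0. Of 13 macrophage markers, 11 were lower in Auto.Pos than in WT and 13 were lower in Auto.Neg than in WT. The median differences were -0.44 and -0.57, against 0.06 and 0.04 over all genes. By sample, however, the groups overlapped. The mean of these markers was 2.23 and 1.54 in Auto.Pos, 1.12 and 2.31 in Auto.Neg, and 2.42 and 2.12 in WT. Of 8 dendritic cell markers, 8 were higher in Auto.Pos than in WT and 6 in Auto.Neg, with medians of 0.16 and 0.21. The part of either cell type in the Ctsb values was not tested.

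Ifi30 (GILT) reduces disulfide bonds of antigens in endosomes and is inducible by interferon gamma. It read 0.59 and 2.50 in Auto.Pos, 2.91 and 1.61 in Auto.Neg, 2.60 and 3.16 in WT, 2.79 in Edited and 3.21 in Non-edited. The samples on slide 2 were the 2 lowest. The largest class II difference, -1.33 for Auto.Pos minus WT (SE 0.763, adjusted p = 1 by limma), was -0.38 without Auto.Pos 1.

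**Figure D1:**
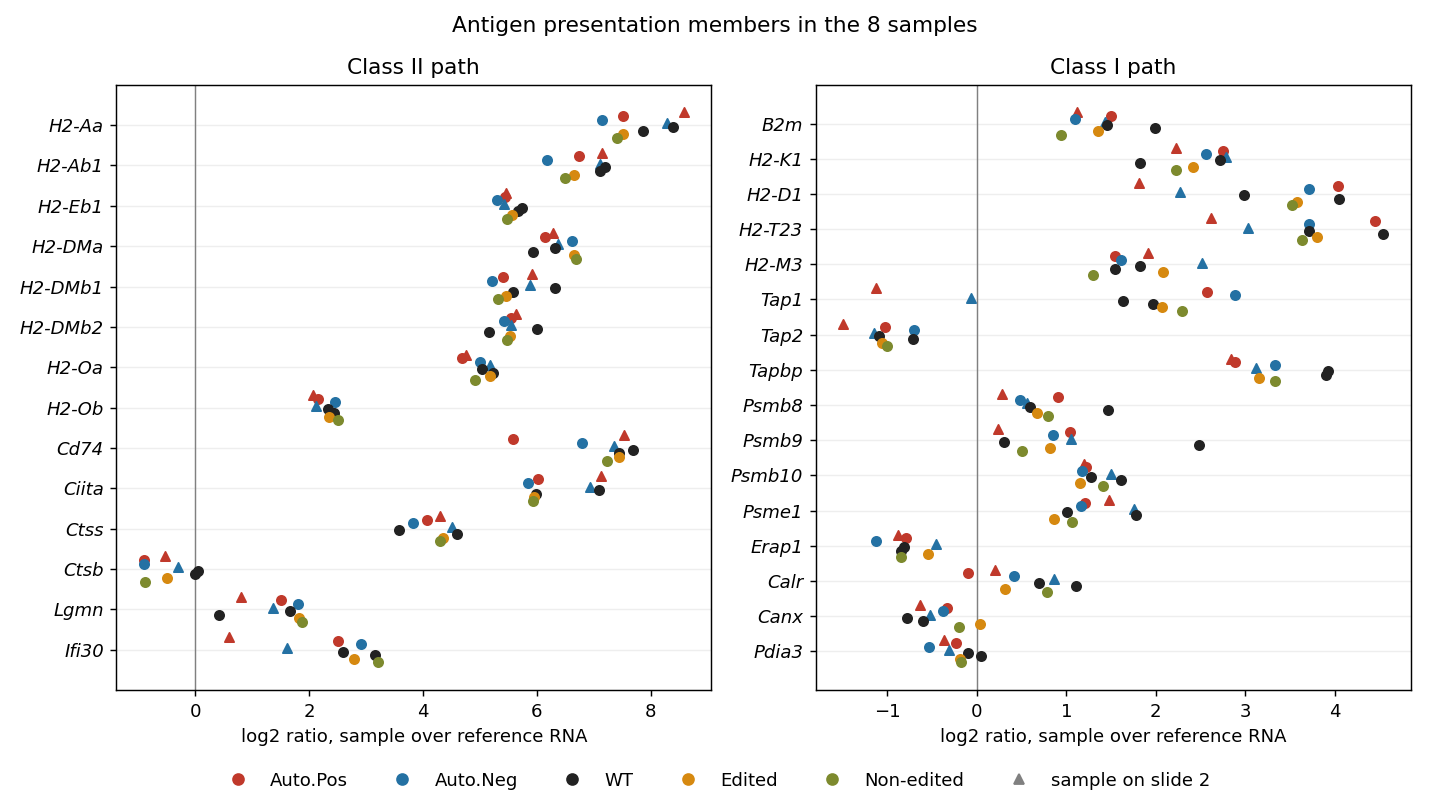
Log2 ratio of sample over reference RNA (x axis) for the 30 measured members (rows), with 1 symbol per sample coloured by group and triangles for the samples on slide 2. Most class II members sit at 4 or more in all samples, whereas Tap1 runs from -1.12 to 2.88.

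Class I path genes lay closer to the reference than class II genes did. Of 16 class I members, 10 were above the reference in all 8 samples and 2 (Tap2 and Erap1) below it in all 8. The path median was 0.70 and 1.21 in Auto.Pos, 1.13 and 1.24 in Auto.Neg, 1.14 and 1.69 in WT, 1.01 in Edited and 1.00 in Non-edited. No class I member passed the adjusted p threshold in any of the comparisons between replicated groups.

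Tapasin (Tapbp) bridges class I molecules and the TAP transporter, and it had the smallest p-values of all members in both comparisons with WT. It read 2.84 and 2.88 in Auto.Pos, 3.33 and 3.12 in Auto.Neg, 3.92 and 3.89 in WT, 3.15 in Edited and 3.33 in Non-edited. The 2 WT samples were above the other 6. The difference was -1.04 for Auto.Pos minus WT, or 2.06-fold lower (SE 0.187, unadjusted p = 0.00235 and adjusted p = 0.368 by limma), and -0.69 for Auto.Neg minus WT (SE 0.187, unadjusted p = 0.0139 and adjusted p = 0.862). For Auto.Pos minus Auto.Neg it was -0.36 (SE 0.187, adjusted p = 1). Within scan day 3 the difference of Auto.Pos minus WT was -1.01. The second Tapbp probe, 2926 bases upstream along the gene, did not show this. It read 2.22 and 2.54 in Auto.Pos, 3.04 and 2.24 in Auto.Neg, 1.96 and 2.20 in WT, 2.37 in Edited and 2.62 in Non-edited, which gave 0.30 for Auto.Pos minus WT and 0.56 for Auto.Neg minus WT. The used probe lies at chr17:32007107-32007166 and the other at chr17:32004181-32004240, both on the plus strand of mm7, the build named in the file headers.

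**Figure D2:**
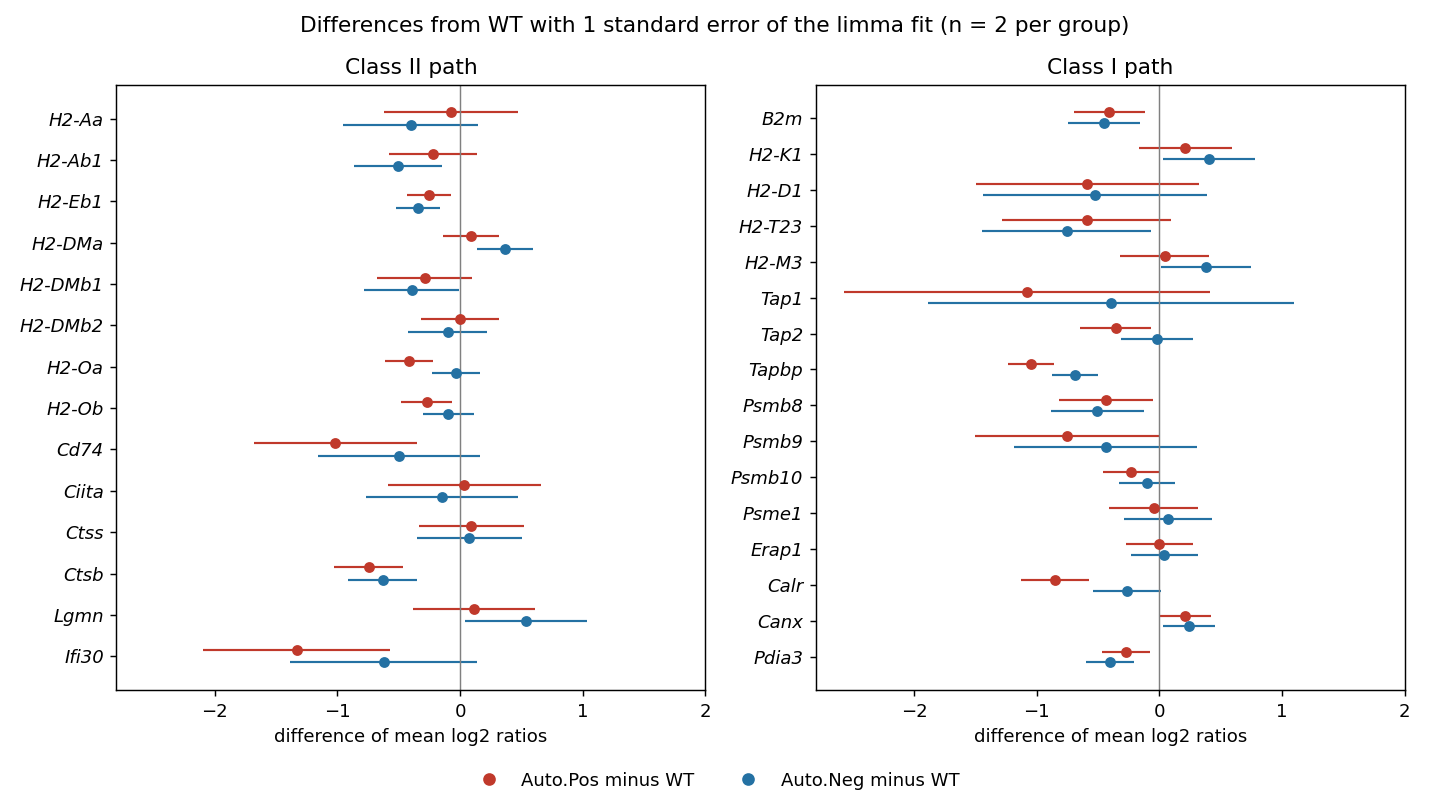
Difference of mean log2 ratios from WT (x axis) for the class II members (left) and class I members (right), for Auto.Pos and Auto.Neg, with bars of 1 standard error from the limma fit (n = 2 per group). Tapbp stands farthest from 0 in units of its error, at -1.04 for Auto.Pos and -0.69 for Auto.Neg, and Tap1 has the widest error, at 1.49.

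Calreticulin (Calr), calnexin (Canx) and ERp57 (Pdia3) help class I molecules to fold or to be loaded in the endoplasmic reticulum. Calr read 0.21 and -0.10 in Auto.Pos, 0.42 and 0.86 in Auto.Neg, 0.69 and 1.11 in WT, 0.31 in Edited and 0.79 in Non-edited. Both Auto.Pos samples lay below the other 6. The difference was -0.85 for Auto.Pos minus WT (SE 0.276, unadjusted p = 0.0268 and adjusted p = 0.773 by limma) and -0.59 for Auto.Pos minus Auto.Neg (SE 0.276, adjusted p = 1). The second Calr probe had the same sign in both, at -1.26 and -1.04. On that probe, however, Auto.Neg 2 read 1.27 and Auto.Pos 2 read 1.05, whereas Auto.Neg 1 read 2.72, so the samples of Auto.Neg were far apart. Canx ran from -0.78 to 0.04 and Pdia3 from -0.54 to 0.05 over the 8 samples. The other Canx probes gave -0.31 and -0.62 for Auto.Pos minus WT, against 0.21 on the used probe.

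Among the classical and non-classical heavy chains, H2-D1 and H2-T23 (Qa-1) were spread more widely than the used probe of H2-K1. The other H2-K1 probes ran from 2.45 to 4.08 and from 0.53 to 2.72. H2-D1 read 1.82 and 4.04 in Auto.Pos, 3.71 and 2.27 in Auto.Neg, 2.99 and 4.04 in WT, 3.57 in Edited and 3.52 in Non-edited. H2-T23 read 2.62 and 4.45 in Auto.Pos, 3.71 and 3.03 in Auto.Neg, 3.71 and 4.54 in WT, 3.80 in Edited and 3.63 in Non-edited. In both genes Auto.Pos 1 and Auto.Neg 2 were the lowest, and the groups overlapped. H2-T23 gave -0.59 for Auto.Pos minus WT and -0.76 for Auto.Neg minus WT (SE 0.687). H2-K1 read 2.22 and 2.74 in Auto.Pos, 2.56 and 2.78 in Auto.Neg, 2.72 and 1.82 in WT, 2.41 in Edited and 2.23 in Non-edited. A second probe that the files name H2-D1 shares no accession with the used one and read between -3.90 and -3.01 in the 8 samples. Class I heavy chains are near copies of each other, and their signals may be shared.

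B2m, the common light chain, read 1.12 and 1.5 in Auto.Pos, 1.10 and 1.43 in Auto.Neg, 1.45 and 1.99 in WT, 1.35 in Edited and 0.95 in Non-edited. It gave -0.41 for Auto.Pos minus WT and -0.45 for Auto.Neg minus WT (SE 0.290). Its other probes gave -0.07 and 0.19, and 0.73 and 1.03. H2-M3, which presents formylated peptides, read 1.91 and 1.54 in Auto.Pos, 1.61 and 2.52 in Auto.Neg, 1.83 and 1.54 in WT, 2.08 in Edited and 1.30 in Non-edited.

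Tap1, a chain of the peptide transporter, had the widest range of all members at 4.0, wider than that of 99.6% of tested genes. It read -1.12 and 2.57 in Auto.Pos, 2.88 and -0.06 in Auto.Neg, 1.63 and 1.97 in WT, 2.06 in Edited and 2.29 in Non-edited. Auto.Pos 1 and Auto.Neg 2 were below 0 and the other 6 samples at 1.63 or more. The difference of Auto.Pos minus WT was -1.08 (SE 1.49, adjusted p = 1 by limma), but 0.77 without Auto.Pos 1. That of Auto.Pos minus Auto.Neg was -0.68 (SE 1.49) and, within slide 2, -1.06. It was 1.16 without Auto.Pos 1 and 0.79 without Auto.Neg 1, and each of these leave-outs gives slide 2 unequal weight in the groups. Its partner chain Tap2 read -1.5 and -1.02 in Auto.Pos, -0.70 and -1.15 in Auto.Neg, -1.09 and -0.71 in WT, -1.06 in Edited and -1.0 in Non-edited. The 2 lowest samples were the same for both chains, over a range of 0.80 in Tap2.

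Psmb8, Psmb9 and Psmb10 are the subunits that turn the proteasome into the immunoproteasome. Psmb9 read 0.24 and 1.04 in Auto.Pos, 0.86 and 1.05 in Auto.Neg, 0.30 and 2.48 in WT, 0.81 in Edited and 0.51 in Non-edited. WT 2 was the highest for Psmb9, and also for Psmb8 at 1.47 against 0.28 to 0.91 in the other 7 samples. WT 2 was also the highest for the interferon-induced GTPase Iigp1, at 5.40 against 0.06 to 1.18 in the others. The Cy3 array of WT 2 had a far higher median sample signal than any other array, and its part in these values was not tested. Over 28 interferon response genes the mean was 1.18 and 1.12 in Auto.Pos, 1.84 and 1.01 in Auto.Neg, 0.88 and 2.06 in WT, 1.22 in Edited and 1.17 in Non-edited. Psmb10, which ran from 1.15 to 1.61, and Psme1, from 0.86 to 1.77, varied less. Erap1 trims peptides to length in the endoplasmic reticulum and ran from -1.12 to -0.46.

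Psmb9, Tap1, Psmb8 and Tap2 lie next to each other in the MHC, their probes within 33.1 kb of chromosome 17 (mm7 positions 32262147 to 32295269). Psmb9 and Tap1 start 226 bases apart and are read in opposite directions. The bases between both starts are shown, read in the direction of Tap1, since it lies before either gene, while Tap1, but not Psmb9, was lowest in both slide 2 samples. The capitals mark the Y box letters, here on the opposite strand.
Tap1 to Psmb9 (chr17:34187331-34187555 of GRCm38.p6, plus strand): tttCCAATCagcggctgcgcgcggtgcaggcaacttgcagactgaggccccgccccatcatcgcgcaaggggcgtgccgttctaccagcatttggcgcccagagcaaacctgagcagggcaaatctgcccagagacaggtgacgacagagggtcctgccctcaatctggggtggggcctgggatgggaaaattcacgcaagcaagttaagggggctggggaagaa
The heavy chain genes H2-K1 and H2-D1 carry in their promoters the letters GAANNGAAA, which resemble the sites of interferon regulatory factors. They are marked below with any Y box letters. H2-K1 also holds the Y box letters at position -6, past the end of the stretch shown. The build is again GRCm38.p6.
H2-K1 (chr17:34000374-34000503, minus strand): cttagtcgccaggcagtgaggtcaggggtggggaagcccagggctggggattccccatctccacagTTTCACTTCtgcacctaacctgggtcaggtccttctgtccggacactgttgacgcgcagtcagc
H2-D1 (chr17:35262924-35263053, plus strand): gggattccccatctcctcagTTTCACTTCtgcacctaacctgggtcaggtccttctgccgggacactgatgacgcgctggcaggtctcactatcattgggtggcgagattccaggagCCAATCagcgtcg
The letters GAANNGAAA, searched on either strand, were in 31.2% of the 16 class I promoters and 8.33% of the 12 class II promoters, against 7.52% of all promoters. H2-K1 counts there with 2 overlapping promoters that hold the same site, so the class I matches are in 4 of 15 genes.

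Several class I members were lowest in the samples on slide 2, which come from different groups. Slide 2 also differed from the others in scanner and scan day, and these cannot be told apart. Of 16 class I members, 4 (Tap1, H2-D1, H2-T23 and Tap2) were lower in both slide 2 samples than in the other 6, and of 14 class II members 2 (Ifi30 and H2-Ob), against 11.4% of all genes. No member was higher in both slide 2 samples than in the other 6, against 27.6% of all genes. Against the other sample of its own group, Tap1 was lower by 3.69 in Auto.Pos 1 and by 2.94 in Auto.Neg 2. H2-Aa was higher by 1.07 in Auto.Pos 1 and by 1.15 in Auto.Neg 2, and Cd74 by 1.94 and 0.57. In a limma fit with slide 2 as a term beside the groups, added after the values were seen, the term was -3.32 for Tap1 (SE 0.258, adjusted p = 0.0767), -1.83 for H2-D1 (SE 0.444, adjusted p = 0.110) and -1.60 for Ifi30 (SE 0.284, adjusted p = 0.0815). It passed an adjusted p of 0.05 for 0 of 20469 genes and an unadjusted 0.05 for 5568 of them, 9 of the 30 members included. With that term the difference of Auto.Pos minus WT for Tap1 was 0.58.

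**Figure D3:**
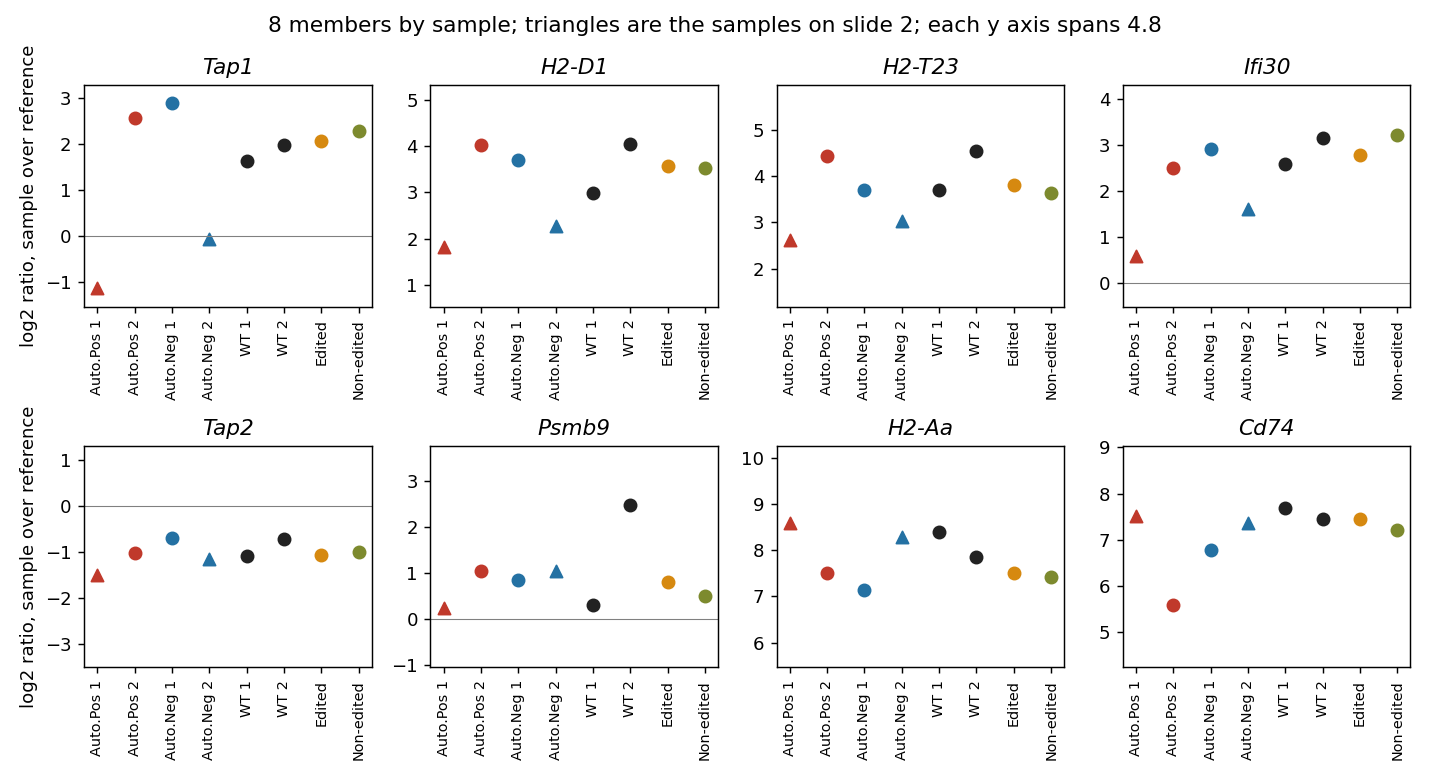
Log2 ratio of sample over reference (y axis) by sample (x axis) for 8 members, coloured by group, with triangles for the samples on slide 2. Both triangles are the lowest points of Tap1, H2-D1, H2-T23, Ifi30 and Tap2, WT 2 is the highest of Psmb9, and Auto.Pos 2 is the lowest of Cd74.

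Probes at different places of a transcript differed in this pattern. The used H2-K1 probe, which lies downstream of the other 2, did not set the slide 2 samples apart, whereas on each of the others those samples were the 2 lowest. One of these read 2.45 and 3.85 in Auto.Pos, 3.98 and 2.86 in Auto.Neg, 3.38 and 3.98 in WT, 4.08 in Edited and 3.93 in Non-edited. The other read 0.53 and 2.19 in Auto.Pos, 2.72 and 0.99 in Auto.Neg, 1.85 and 2.01 in WT, 2.48 in Edited and 2.4 in Non-edited. H2-M3 did the same, with 0.26 and 1.69 in Auto.Pos and 2.00 and 0.77 in Auto.Neg on its upstream probe. These upstream H2-K1 probes and the Tap1 probe are shown as the oligonucleotides that read low on slide 2. Each has at least 1 reading frame without a stop codon. No share over other probes was counted, so this does not show that the stretches are coding.
H2-K1, upstream probe (chr17:32077868-32078115, minus strand, mm7): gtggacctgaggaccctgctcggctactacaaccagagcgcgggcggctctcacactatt
H2-K1, middle probe (chr17:32077678-32077737, minus strand, mm7): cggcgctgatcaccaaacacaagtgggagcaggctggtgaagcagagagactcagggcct
Tap1 probe (chr17:32273751-32273810, plus strand, mm7): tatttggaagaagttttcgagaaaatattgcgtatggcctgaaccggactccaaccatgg
In 10 members with probes 500 or more bases apart, the upstream minus the downstream probe was lower in both slide 2 samples than in the other sample of their group for 6 and higher for 1. Over 5164 genes with such probes this was so for 44.6% and 36.3%, with median changes of -0.07 in Auto.Pos and -0.10 in Auto.Neg. For H2-M3 the changes were -1.80 and -2.14, and for H2-K1 -0.88 and -1.34. RNA quality was not measured in the files used here, and its part was not tested.

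**Figure D4:**
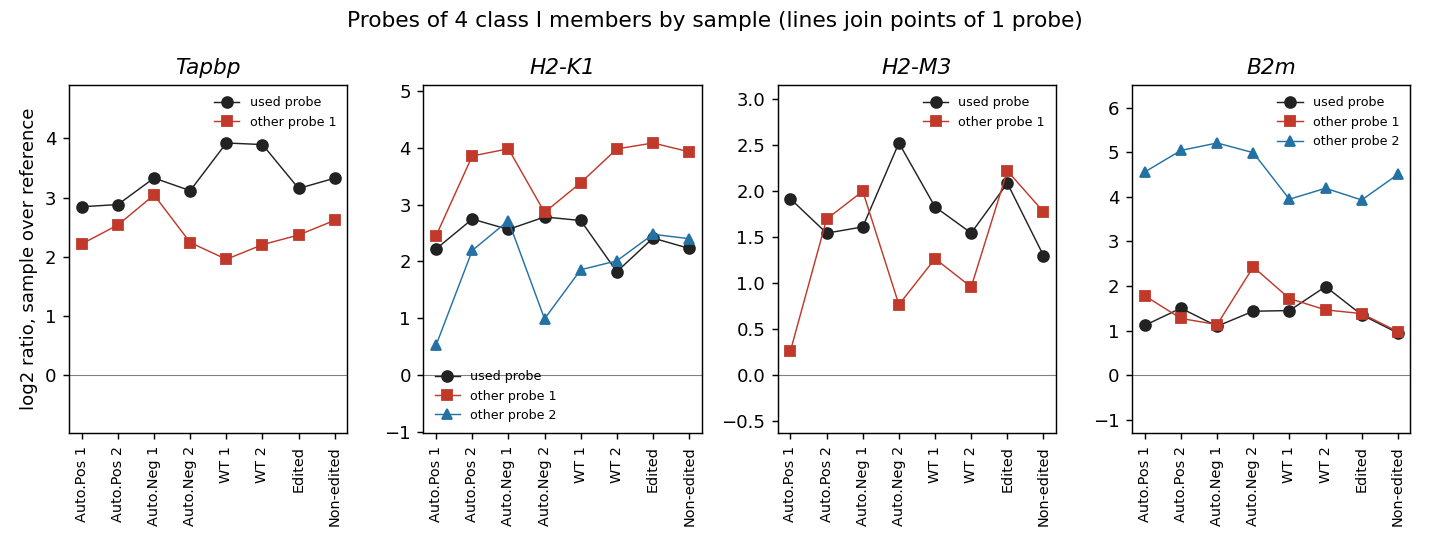
Log2 ratio of sample over reference (y axis) by sample (x axis) for each probe of 4 class I members, with the used probe in black and lines joining the points of 1 probe. The Tapbp probes differ most in WT, where the used probe reads 3.92 and 3.89 and the other 1.96 and 2.20, and the other probes of H2-K1 and H2-M3 dip in Auto.Pos 1 and Auto.Neg 2.

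For Auto.Pos against Auto.Neg, 7 class II members were higher and 7 lower, and 4 class I members were higher and 12 lower. The median difference was -0.05 for class II and -0.13 for class I, against 0.02 over all genes. An adjusted p under 0.05 was reached by 0 of 30 members and 0.0147% of all genes, and an unadjusted p under 0.05 by 0 members and 1.04% of all genes. Both Auto.Pos samples lay above both Auto.Neg samples for 2 members (H2-Eb1 and H2-DMb2), against 11.1% of all genes, and below them for 4 (H2-DMa, H2-Oa, Tapbp and Calr), against 8.17%. Within slide 2 the medians were -0.02 for class II and -0.38 for class I.

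For Auto.Pos against WT, 9 of 14 class II members and 12 of 16 class I members were lower, with median differences of -0.24 and -0.38, against 0.06 over all genes. None passed an adjusted p of 0.05, and 0% of all genes did. An unadjusted p under 0.05 was reached by 3 members (Ctsb, Tapbp and Calr), against 5.62% of all genes. No member had both Auto.Pos samples above both WT samples, against 19.2% of all genes, and 9 had them below, against 10.4%. These 9 were H2-Eb1, H2-Oa, H2-Ob, Ctsb, Ifi30, Tapbp, Psmb10, Calr and Pdia3. Within scan day 3 the medians were -0.31 for class II and -0.29 for class I. With scale normalization between arrays the class II median was -1.33, and it was -0.50 with slide 2 as a term.

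For Auto.Neg against WT, 11 of 14 class II members and 11 of 16 class I members were lower, with median differences of -0.24 and -0.33, against 0.04 over all genes. None passed an adjusted p of 0.05, and 0% of all genes did. An unadjusted p under 0.05 was reached by 1 member, Tapbp, against 4.59% of all genes. Both Auto.Neg samples lay above both WT samples for 2 members (H2-DMa and Canx), against 15.4% of all genes, and below them for 7 (H2-Eb1, Cd74, Ctsb, B2m, Tapbp, Psmb8 and Pdia3), against 9.57%. The other Canx probes had the opposite sign in this comparison, at -0.70 and -0.20 against 0.24 on the used probe. With scale normalization between arrays the class II median was -0.83. No slide or scan day held samples of both groups. The comparisons with WT share the same WT samples, so their likeness is no result.

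For Edited against Non-edited, each 1 sample, no test was possible, and a member counted as apart where it was at least 2-fold apart in the same direction in both dye orientations. By that rule 0 of 30 members were higher and 0 lower, against 1.22% and 0.172% of all genes. The same sign in both orientations was found for 9 members higher, against 31.2% of all genes, and 6 lower, against 38.5%. The difference was largest for H2-M3, at 0.88 in one orientation and 0.69 in the other. Calr gave -0.40 and -0.55, and Ifi30 gave -0.45 and -0.38. Ctsb gave 0.32 and 0.47, H2-Oa 0.49 and 0.07, and B2m 0.70 and 0.12. The median difference was 0.08 over class II, 0.02 over class I and -0.03 over all genes.

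Probes of 1 gene often gave differences of opposite sign. There were 19 other probes in 14 members, and they had the other sign from the used probe in 8 cases for Auto.Pos minus Auto.Neg, 10 for Auto.Pos minus WT and 11 for Auto.Neg minus WT. Among further genes of these paths, none passed an adjusted p of 0.05 in the 3 comparisons. They held 15 further class I genes, 15 further class II genes, 15 subunits of the constitutive proteasome, 18 regulators of MHC transcription and 12 folding factors of the endoplasmic reticulum. An unadjusted p under 0.05 was reached by 0 of these genes for Auto.Pos minus Auto.Neg, by 1 further class II gene and 1 regulator for Auto.Pos minus WT, and by 1 further class I gene and 2 regulators for Auto.Neg minus WT. H2-T22, a non-classical heavy chain, read 0.08 and 1.95 in Auto.Pos, 2.14 and 1.03 in Auto.Neg, 1.00 and 2.41 in WT, 1.71 in Edited and 1.65 in Non-edited, and Auto.Pos 1 was its lowest sample. Hfe, a class I-like protein of iron balance, gave -1.16 for Auto.Neg minus WT (adjusted p = 0.653 by limma) and H2-Bl gave 0.64. Among the class II relatives, Marchf8, a ubiquitin ligase, gave -1.02 for Auto.Pos minus WT, Sppl2a, which degrades the invariant chain stub, gave -0.87 for Auto.Neg minus WT, and Ctsl, cathepsin L, gave 0.87 for Auto.Pos minus WT. Of the proteasome subunits, Psmb4 gave -0.71 and Psma3 0.56 for Auto.Pos minus WT, and Psma6 gave -0.61 for Auto.Neg minus WT. Of the regulators, Pax5, the B cell identity factor, gave 1.37 for Auto.Pos minus WT (adjusted p = 0.534 by limma), and Smarca4, a chromatin remodeller, gave 1.37 for Auto.Neg minus WT. Of the folding factors 11 of 12 were lower in Auto.Pos than in Auto.Neg, with a median difference of -0.27. The count was 7 without Auto.Pos 1, 10 without Auto.Pos 2, 7 without Auto.Neg 1 and 11 without Auto.Neg 2. The median ran from -0.42 to -0.26 in these, and it was -0.30 within slide 2. Hsp90b1, the chaperone GRP94, had ratios of 0.27 and -1.51 in Auto.Pos samples and of -0.08 and 0.69 in Auto.Neg samples. Its difference of -0.93 (SE 0.649) ran, with 1 sample left out, from -1.81 (without Auto.Pos 1) to -0.04 (without Auto.Pos 2). Uggt1, a glycoprotein folding sensor, had ratios of 2.09 and 0.70 in Auto.Pos samples and of 2.06 and 2.39 in Auto.Neg samples. Its difference of -0.83 (SE 0.593) ran likewise from -1.53 (without Auto.Pos 1) to -0.13 (without Auto.Pos 2). Ganab, a glucosidase, gave -0.97 for Auto.Pos minus WT (SE 0.398).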

How the data were processed

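The scanner files hold, per the file headers, raw spot and background intensity of both channels, written by Agilent Feature Extraction 9.1.1.1, 9.1.3.1 and 9.5.1.1, and a deposited log10 ratio of red over green. The series table holds the authors' log2 ratios, for which the submitters' processing notes name limma. Of its 16 columns, 10 correlated best with an array other than the labelled one and 14 ran as sample over reference. Some of these mismatches cross groups, as the columns labelled WT 2 matched the arrays of Auto.Neg 1 best. The scanner files' attribution was used, and the table served as an alternative. Which attribution is right was not settled here, so every group value rests on that choice. Per the labels' protocols, RNA was amplified before labelling.

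In R 4.3.3 with limma 3.58.1, normexp (offset 50) corrected the mean foreground signal, and loess was applied within each array. Outlier spots were dropped. Probes whose sample channel was well above background on both arrays of at least 2 samples were kept, 29640 of 41174. One mean per group was fitted over 8 samples, with 3 residual and 2.11 prior degrees of freedom, and p-values were adjusted over 20469 genes by Benjamini-Hochberg. On simulated data for Auto.Pos minus WT with 200 of 20463 genes changed, the fit recovered 0% of changes of 1 log2 unit, 29.5% of 2 and 80.5% of 4. Probe coordinates are those of the files (mm7).

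Members called, and the 3 of each path with the largest difference in a comparison, are given in all samples, and of each pathway list the genes called and the 3 with the largest differences. Other members were added to these after their values were seen. One gene that this rule names in a list is not reported here. The members and lists were chosen with earlier results of these data known. Alternatives changed background, normalization, filter, probe, samples, blocks and threshold.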

Additional observations from a re-analysis of the deposited data

How the results depend on the processing

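In the 17 alternative settings that gave a count for each replicated comparison, the count of members past the threshold was 0, except in the submitters' value table as labelled, where it was 23 for Auto.Pos minus Auto.Neg and 23 for Auto.Neg minus WT. There, both columns that match their arrays with the sign turned are labelled Auto.Neg and run as reference over sample. In this table the class II medians were 5.78, 0.18 and -5.51 for Auto.Pos minus Auto.Neg, Auto.Pos minus WT and Auto.Neg minus WT, and the class I medians for the first and last were 1.15 and -1.42. It also turned the differences of Tapbp (3.49) and Calr (0.31) for Auto.Pos minus Auto.Neg, of Cd74 (0.29) and Ctsb (0.0245) for Auto.Pos minus WT, and of Ctsb (0.47) for Auto.Neg minus WT. Rematched, its columns gave 0 members called in every comparison. Scale normalization between arrays moved the class II medians to -0.36, -1.33 and -0.83 in the same order of comparisons, and the cause was not tested. Slide 2 as a term, added after the data were seen, moved the class II median of Auto.Pos minus WT to -0.50. Median centring moved the class II median of Edited minus Non-edited to 0.31. A 1.5-fold threshold counted 1 member there, against 0. Leaving out 1 sample at a time, class II medians ran from -0.21 to 0.15, -0.40 to -0.04 and -0.45 to -0.04, and class I medians from -0.31 to 0.08, -0.61 to -0.12 and -0.47 to -0.02, with 0 members called. Of 348 values of named members under the alternatives 28 changed sign. Deviations of same-number samples correlated at -0.79 (Auto.Pos with Auto.Neg), 0.25 (Auto.Pos with WT) and -0.28 (Auto.Neg with WT). The -0.79 is a crossed likeness of Auto.Pos 1 with Auto.Neg 2, its slide mate, and of Auto.Pos 2 with Auto.Neg 1. Over all genes these pairs correlated at 0.978 and 0.957, against 0.904 within Auto.Pos and 0.903 within Auto.Neg. The main fit has no slide term, so its standard errors include any slide offset. With a replicate block the count of members called was 0 in each comparison and the medians were the same. Slide as a random block was not run, since 1 slide alone held more than 1 sample. No value within a slide or day exists for Auto.Neg minus WT.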
